A study of Mus musculus with 28 samples.

Results

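The ovaries described here came from C57BL/6 mice on full diet (AL, ad libitum) at 6 and at 16 months of age. They were chosen by the sample titles, as the arrays whose title gives ovary, AL and either age, which finds 4 of the 28 arrays of the series, 2 animals at 6 months and 2 at 16 months. In the study, testes and ovaries of mice on AL or on caloric restriction (CR) were profiled from 1 to 24 months on Agilent arrays of 60-base probes. CR began at 14 weeks of age, and before that the CR animals too had been fed AL. RNA of the whole ovary of a single mouse was labelled with Cy3 and hybridized together with Cy5-labelled reference RNA, a pool from 11 mouse cell lines. Each value below is the log2 ratio of ovary to reference, so that 0 means the level of the reference.

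Replicate 1 of either age was measured on version 2.1 of the array and replicate 2 on version 2.2, and the values of version 2.1 were shifted probe by probe to those of version 2.2. A difference of 16 minus 6 months is thus also the mean of a difference within version 2.1 and a difference within version 2.2, each between 1 animal of either age. The labels of the 16-month animals are not uniform. Replicate 1 has an age of 16 months and a source name of 1 year, and replicate 2 an age of 15 months and a source name of 1 year and 3 months. On the 14 ovary arrays 96.3% to 100% of spots were well above background in the ovary channel, and the median signal was 1.33 to 1.74 times the median background. Beyond the 4 AL ovaries, the 4 CR ovaries of the same 2 ages, which are other animals, serve for comparison, and all 14 ovary arrays give the error of the tests.

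The ovary stores oocytes in follicles. In a growing follicle the oocyte builds its zona pellucida and loads the proteins and RNAs that the early embryo will use, while granulosa cells around it divide and make estrogen from androgen of the theca cells. After ovulation the follicle turns into a corpus luteum, which makes progesterone, and follicles and corpora lutea that regress are cleared by macrophages. The store of oocytes is not renewed and runs down with age.

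The arrays carried the markers of an ovary at both ages. Inha, the alpha subunit of inhibin from granulosa cells, had log2 ratios of 4.76 and 5.16 at 6 months and of 5.30 and 5.08 at 16 months. Hsd3b1, an enzyme of steroid synthesis, had 4.08 and 4.27 at 6 months and 4.47 and 4.43 at 16 months, and Amhr2, the receptor of anti-Müllerian hormone, 4.83 and 4.55 against 4.00 and 4.25. All 3 stood far above the reference in every one of the 4 ovaries, and none of the 3 was called as different between the ages (adjusted p = 0.64 for Inha, 0.246 for Hsd3b1 and 0.201 for Amhr2). The other probes of Hsd3b1 gave changes of -0.55 and 0.09, and neither was called. The RNA is that of a whole organ, so that fewer cells of a type and less RNA per cell cannot be told apart in any value below.

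Between 6 and 16 months 1947 of 35337 genes were called in limma, where a call needs an adjusted p (Benjamini-Hochberg) no higher than 0.1 and 1.5-fold or more between the means, which is 5.51% of those tested. Of these, 750 were higher at 16 months (2.12% of genes tested) and 1197 were lower (3.39%). The largest fall of a named gene was in Padi6, a gene of the oocyte. The 3 largest rises of named genes were in Gpnmb, Fabp5 and Pla2g7, all on the list of lipid-laden and multinucleated macrophages. The changes exceeded 2-fold in 321 of the rises and in 261 of the falls. The 6- and 16-month values do not overlap in any of the 1947, as they do not in 58.4% of the genes measured on all 4 arrays.

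These counts rest on few animals and on a lenient threshold. The version shift was estimated from the same arrays, but the main fit does not count it as a fitted term. This tends to make the p values of the main fit too small. The fit with the array version as a block, given below, does count it. In limma 0 genes were called when the variance followed the methods' ANOVA. The balance of rises and falls moved with the setting too. From the Cy3 channel alone there were 475 rises and 292 falls, without background correction 366 and 295, with the signals of the scanner software 1778 and 1787, with median centring 12 and 162 and without version adjustment 2 and 100. The lowest adjusted p was 0.0126, and the median over the called genes 0.0742. With the array version as a block in the fit 362 genes were called (1.02%), 337 of them falls and 25 rises, and all 362 are among the 1947. Without 6-month replicate 1 the count was 200, and without 6-month replicate 2 it was 4048. It was 481 without 16-month replicate 1, 766 without 16-month replicate 2, and 1246 without either CR ovary of 16 months. Over all genes the change had an SD of 0.50 between the animals on version 2.1 and of 0.35 between those on version 2.2.

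Oocyte genes made the clearest group. Of 34 measured genes of the oocyte list 23 fell, or 67.6%, beside 3.39% of all genes, and none was called as higher. The list was written with earlier results of these data known. The paper had named several of its genes as falling with age in these same arrays, so this share is no independent count. The median change of the list was -1.24, against -0.01 over all genes. It was -0.91 within version 2.1, -1.28 within version 2.2 and -0.49 without background correction, where 10 fell, and from the Cy3 channel alone 8 fell. With the version as a block 15 of the 34 were called, and without 6-month replicate 1 or 16-month replicate 2 there were 7 and 10 called oocyte genes.

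Padi6, an arginine deiminase that the oocyte needs for its cytoplasmic lattices, had log2 ratios of 4.57 and 4.04 at 6 months and of 1.36 and 0.39 at 16 months. It fell by 3.43 (SE 0.52, adjusted p = 0.0294), the largest fall of a gene with a name that had the same sign within both versions. Both 6-month ovaries stood above both 16-month ovaries. Without 6-month replicate 1 it was not called (-2.97, adjusted p = 0.149). A dimmer probe of Padi6 fell as well, by 1.35.

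Nobox, a homeobox factor of early oocytes, had 2.55 and 2.56 at 6 months and 0.57 and 0.23 at 16 months, a change of -2.16 (SE 0.19, adjusted p = 0.0126). Zp3, which codes for the sperm-binding protein of the zona pellucida, had 1.84 and 1.43 against 0.02 and -0.31, a change of -1.78 (SE 0.20, adjusted p = 0.0144). Zp2 had 2.82 and 2.56 against 0.90 and 0.02, a change of -2.23 (SE 0.37, adjusted p = 0.0367). For each of these genes the ages do not overlap. Nobox and Zp3 were called in each of the 14 fits that leave out 1 array, and in 14 and 15 of 16 other settings (-2.16 to -0.62 and -2.15 to -0.64). Zp2 was not called without 6-month replicate 1 (-1.97, adjusted p = 0.215) or 16-month replicate 2 (-1.66, adjusted p = 0.107). Zp1 fell by 0.69 (adjusted p = 0.0567), and its other probe gave -0.08. Zp1 was not called with the version as a block (adjusted p = 0.105), nor without 6-month replicate 1 (-0.64) or 16-month replicate 2 (-0.52).

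Dppa3, a maternal factor that the oocyte hands to the embryo, had 3.68 and 3.85 at 6 months and 1.36 and 0.87 at 16 months, a change of -2.65 (SE 0.31, adjusted p = 0.0144). Nlrp5, a component of the subcortical maternal complex, had 1.64 and 1.60 against 0.33 and -0.99, a change of -1.95 (SE 0.43, adjusted p = 0.0561). It was not called with the version as a block, nor without 6-month replicate 1 (-1.92, adjusted p = 0.263) or 16-month replicate 2 (-1.28, adjusted p = 0.14), and its other probe gave -0.12. The oocyte-specific Oog1, Oog3 and Oog4 fell by 2.62, 2.62 and 2.48, though Oog1 not without 6-month replicate 1 (-2.33, adjusted p = 0.2). Among these genes 16-month replicate 2 was the lower of the 2 old ovaries.

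Not every oocyte gene was called. Gdf9, a growth factor that the oocyte sends to granulosa cells, had 5.24 at 6 months in replicate 1 alone, since its spot in replicate 2 did not pass the spot filter, and 3.66 and 1.31 at 16 months. Its change of -2.75 was not called (adjusted p = 0.106), but it was called without 16-month replicate 1 (-3.94, adjusted p = 0.063), without 6-month replicate 2 (-2.75, adjusted p = 0.0854) and without either CR ovary of 24 months (-2.36, adjusted p = 0.0795). Bmp15, its close relative, had 0.52 and 0.42 against -0.05 and -0.16, a change of -0.57 that passed the FDR (adjusted p = 0.0892) but not 1.5-fold. Figla, which drives the zona genes, had 0.90 and 1.05 against 0.06 and 0.03 (change -0.93, adjusted p = 0.139), and at 16 months it was well above background on 1 array. Without either AL ovary of 24 months Figla was called (adjusted p = 0.0683). Obox1 went the other way, with 0.60 and 0.75 against 1.44 and 1.28, and its change of 0.68 was not called (adjusted p = 0.113). It was called without 6-month replicate 2 (0.84, adjusted p = 0.0949), without either CR ovary of 24 months (adjusted p = 0.0914) and in 5 of 16 other settings, as Gdf9 was in 5, Bmp15 in 2 and Figla in 1.

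Among the 12 largest falls of named genes, 5 are on the oocyte list. Of the others, Cables1, a regulator of cyclin-dependent kinases, had 4.62 and 5.02 at 6 months and 2.86 and 1.77 at 16 months, a change of -2.51 (SE 0.35, adjusted p = 0.0228). Fbxw15 and Fbxw27, F-box proteins of a gene cluster, fell by 2.49 and 2.35, and Pabpn1l, a relative of the nuclear poly(A)-binding protein, by 2.38. Fbxw27 and Pabpn1l were not called without 6-month replicate 1 (-2.40, adjusted p = 0.144 and -2.19, adjusted p = 0.203). All 4 had the shape of the oocyte genes, with both 6-month ovaries high and both 16-month ovaries low. The remaining 3 of the 12, Akr1c18, S100a6 and Rgcc, are given with the luteal genes.

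Members that move together invite a look at their promoters. RefSeq promoters (build GRCm38.p6) were at hand for 16 of the 23 oocyte genes that fell, and the 250 bases before the start were searched on both strands for an E-box, CACGTG, for another form of it, CATGTG, for a homeobox motif, TAATTG, and for a close relative of that motif, TAATTA. The E-box CACGTG was in 2 of the 16 (12.5%), beside 6.05% of all 27025 promoters, and TAATTG was in 4 of the 16 (25%), beside 7.34% of all. CATGTG was in 2 of the 16 (12.5%, beside 12.2% of all) and TAATTA in 0 (beside 4.9% of all). Over all 24 oocyte genes with a promoter, called or not, the shares were 8.33% for CACGTG and 16.7% for TAATTG. In 14 genes of the list of lipid-laden and multinucleated macrophages, of which 4 members rose, CACGTG was in 0 and TAATTG in 3 (21.4%). Printed are Zp3 with its E-box, and Oog3 and Oog4, the holders of TAATTG that fell most, chosen after this search. The match is in capitals and reads CAATTA where it lies on the other strand.
Zp3, chr5:135979855-135980104, plus strand: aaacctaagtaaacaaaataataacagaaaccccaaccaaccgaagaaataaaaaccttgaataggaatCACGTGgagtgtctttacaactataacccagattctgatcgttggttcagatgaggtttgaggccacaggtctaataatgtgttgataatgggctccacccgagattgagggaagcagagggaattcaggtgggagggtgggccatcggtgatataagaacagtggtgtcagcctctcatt
Oog3, chr4:144162652-144162901, minus strand: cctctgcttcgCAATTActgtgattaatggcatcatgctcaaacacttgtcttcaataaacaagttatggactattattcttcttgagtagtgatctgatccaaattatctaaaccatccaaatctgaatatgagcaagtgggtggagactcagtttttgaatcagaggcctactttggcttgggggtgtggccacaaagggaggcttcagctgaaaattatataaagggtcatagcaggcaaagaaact
Oog4, chr4:143450325-143450574, minus strand: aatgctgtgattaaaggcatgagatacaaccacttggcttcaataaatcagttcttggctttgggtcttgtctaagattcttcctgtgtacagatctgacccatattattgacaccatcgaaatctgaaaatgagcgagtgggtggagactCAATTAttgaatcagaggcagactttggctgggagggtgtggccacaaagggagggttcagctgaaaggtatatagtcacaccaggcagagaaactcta
In Zp3 the match begins 181 bases before the start, in Oog3 239 and in Oog4 99. A match is a description of letters and no evidence of binding, and whether the motifs bear on the falls was not tested.

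Granulosa cell genes split. Of 18 measured genes 3 fell (16.7%, beside 3.39% of all genes) and none rose, and the median change was -0.30. It was -0.12 within version 2.1, -0.52 within version 2.2 and -0.04 without 16-month replicate 2. Esr2, the estrogen receptor of granulosa cells, had log2 ratios of 4.07 and 4.36 at 6 months and of 2.55 and 2.02 at 16 months, a change of -1.93 (SE 0.23, adjusted p = 0.0249). Nr5a2, a nuclear receptor needed for ovulation, had 2.33 and 2.13 against 0.71 and 0.29, a change of -1.73 (SE 0.19, adjusted p = 0.0136). Both were called with the version as a block and in all 14 fits that leave out 1 array, but not in every other setting. Without background correction Esr2 gave -0.62 (adjusted p = 0.453) and Nr5a2 -0.37 (adjusted p = 0.151), and from the Cy3 channel alone -0.65 (adjusted p = 0.597) and -0.74 (adjusted p = 0.25). With the deposited values Esr2 gave -0.97 (adjusted p = 0.13). Of 16 other settings, 10 called Esr2 and 13 Nr5a2. Npr2, the receptor by which the granulosa holds the oocyte in meiotic arrest, fell by 0.80 (adjusted p = 0.084), though not without 16-month replicate 1 (-0.53, adjusted p = 0.355), 16-month replicate 2 (-1.06, adjusted p = 0.112) or 6-month replicate 1 (-0.71, adjusted p = 0.371), nor without either AL ovary of 24 months (adjusted p = 0.109).

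Other genes of follicle growth were not called by their brightest probe. Amh, a hormone of small growing follicles, had 0.75 and 0.75 at 6 months and 0.43 and 0.44 at 16 months, with a change of -0.32 (adjusted p = 0.117). Fshr, the receptor of follicle-stimulating hormone, gave -0.19 (adjusted p = 0.343). Inhba, a subunit of activin, had 0.93 and 2.78 at 6 months and 3.55 and 1.56 at 16 months, and Inhbb had 4.14 and 3.97 against 4.09 and 1.55. Cyp19a1, the aromatase, had 0.89 and 1.90 against 2.48 and 1.21. For Inhba and Cyp19a1 the ages overlap, and within the versions they went opposite ways, by 2.62 and -1.22 for Inhba and by 1.59 and -0.70 for Cyp19a1. Gja1, the gap junction protein of granulosa cells, had 1.77 and 3.78 in the 6-month animals and 3.49 in both 16-month animals. Inhbb was called without 16-month replicate 1 (-2.58, adjusted p = 0.085) and Gja1 without 6-month replicate 2 (1.75, adjusted p = 0.00649). Kitl, the ligand of oocyte Kit, gave 0.13 (adjusted p = 0.833), and the brightest probe of Kit 0.03 (adjusted p = 0.98), while of its other probes 1 gave -0.37 and 1 was called as higher (0.70, adjusted p = 0.0841 in the fit by the probe with the lowest p).

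**Figure D1:**
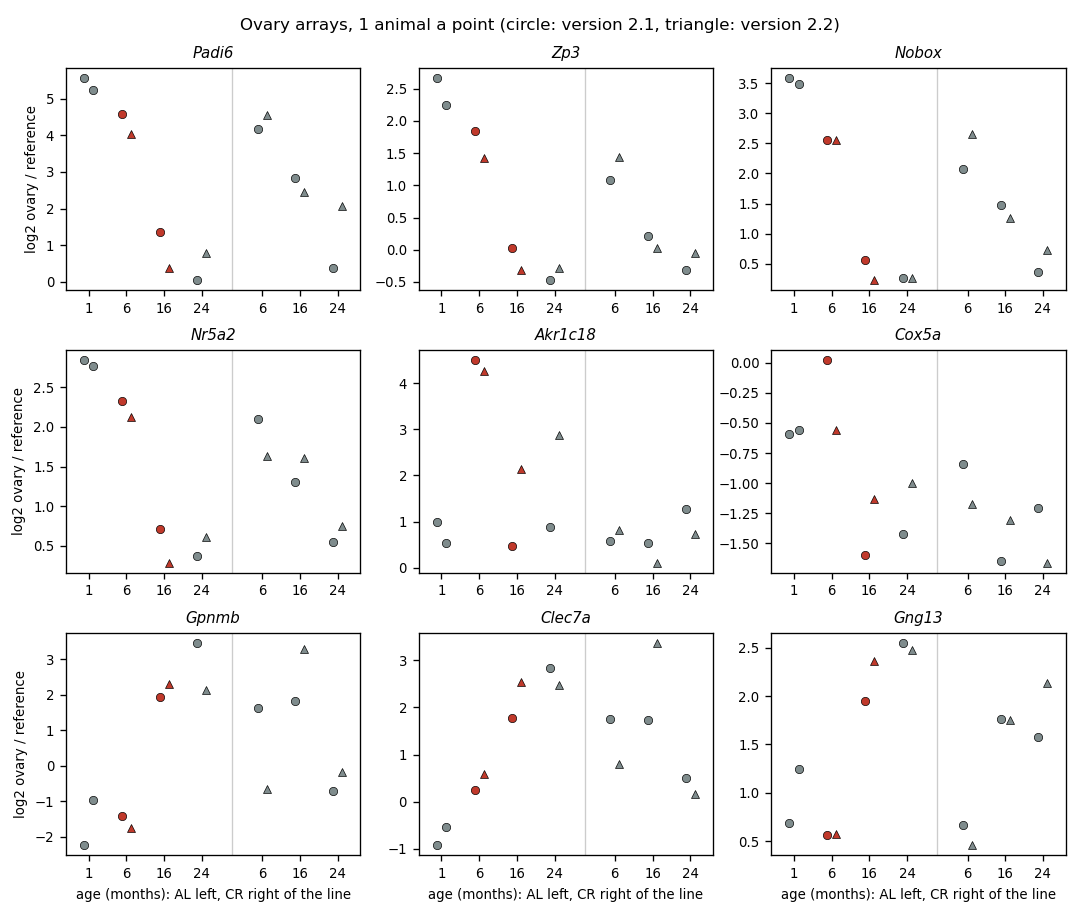
Log2 ratio of ovary to reference (y axis) for 9 genes on each of the 14 ovary arrays, by age in months (x axis), AL to the left and CR to the right of the line. Every point is 1 animal, in red the 4 AL ovaries of 6 and 16 months. In Padi6, Zp3, Nobox and Nr5a2 both red 6-month points lie above both 16-month points, in Gpnmb, Clec7a and Gng13 they lie below, and in Akr1c18 the 6-month AL ovaries, at 4.50 and 4.27, lie above all 12 other arrays.

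Among genes of the corpus luteum and of steroid synthesis Akr1c18 was the only one called. Of 17 measured genes 1 fell (5.88%, beside 3.39% of all genes) and none rose, and the median change was -0.23 (-0.49 within version 2.1 and 0.12 within version 2.2). Akr1c18, the enzyme that breaks down progesterone when a corpus luteum regresses, had log2 ratios of 4.50 and 4.27 at 6 months and of 0.48 and 2.15 at 16 months. It fell by 3.07 (SE 0.64, adjusted p = 0.053). Its other probe fell by 2.95. The call was lost without 6-month replicate 1 (-2.84, adjusted p = 0.233) and without 16-month replicate 1 (-2.12, adjusted p = 0.212). In the other ovaries Akr1c18 had 1.00 and 0.54 at 1 month, 0.88 and 2.87 at 24 months on AL, and 0.58 and 0.81 at 6 months on CR.

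Akr1c18 was thus higher in both 6-month AL ovaries than in any of the 12 other ovaries. S100a6, a calcium-binding protein, had the same shape, with 0.52 and -0.92 in the 6-month AL ovaries and -3.28 and -2.49 at 16 months (change -2.68, SE 0.51, adjusted p = 0.0451), and it was not called without 6-month replicate 1 (-1.77, adjusted p = 0.275) or 16-month replicate 1 (-2.10, adjusted p = 0.152). Rgcc, a regulator of the cell cycle, did not share it, since both 1-month AL ovaries, at 2.13 and 2.44, lay above 6-month replicate 2. It had 3.70 and 1.89 against 0.34 and 0.44 (change -2.41, SE 0.60, adjusted p = 0.0712). It was not called with the version as a block, nor without 6-month replicate 1 (-1.45, adjusted p = 0.366), 16-month replicate 1 (-2.31, adjusted p = 0.209) or 16-month replicate 2 (-2.51, adjusted p = 0.145). Star, which carries cholesterol into the mitochondrion, had 4.78 and 4.09 against 3.43 and 3.54, and Cyp11a1, which makes pregnenolone from it, 4.21 and 4.25 against 2.72 and 3.99. Neither was called (change -0.95, adjusted p = 0.11 for Star; change -0.87, adjusted p = 0.214 for Cyp11a1), yet for both the 6-month AL ovaries were the highest of all 14. Star was called without 6-month replicate 2 (-1.35, adjusted p = 0.0496) or either CR ovary of 16 months (adjusted p = 0.0875), and Cyp11a1 without 16-month replicate 2 (-1.52, adjusted p = 0.0963). Lhcgr, the receptor of luteinizing hormone, gave -0.14 (adjusted p = 0.896), and Cyp17a1, which makes androgen, had 1.86 and 3.70 against 3.49 and 3.87 (adjusted p = 0.428).

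This shape was then counted over all genes, after it had been seen in Akr1c18. Among the 1197 falls, 383 (32.0%) had both 6-month AL ovaries above all 12 other ovary arrays, beside 1751 (4.96%) of all genes. Among the 750 rises, 221 (29.5%) had both of them below all 12 others, beside 1321 (3.74%) of all genes. Both shares are raised by the selection of genes for high or low values in the same 2 arrays. In these genes the 6-month AL ovaries differ from the younger and the CR ovaries too, and the difference between 6 and 16 months is no steady course with age. None of the 34 oocyte genes had both 6-month ovaries above all others. In the electron transport list 25 of 73 genes did (34.2%), in the mitochondrial ribosome list 14 of 66 (21.2%), and in the luteal list 4 of 17 (23.5%).

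Of 73 measured genes of electron transport and ATP synthase 9 fell (12.3%, beside 3.39% of all genes) and none rose, and the median change was -0.32 (-0.42 within version 2.1 and -0.14 within version 2.2). Cox5a, a subunit of cytochrome c oxidase, had 0.02 and -0.56 at 6 months and -1.60 and -1.13 at 16 months, and fell by 1.09 (SE 0.25, adjusted p = 0.0641). Ndufc2 and Ndufv3 of complex I fell by 0.86 and 0.80 (adjusted p = 0.0756 and 0.0653). None of the 3 was called without 6-month replicate 1 (-0.64, -0.57 and -0.50) or 16-month replicate 1 (-0.69, -0.65 and -0.78). Cox6a1, the brightest of the list, was saturated on 1 of the 6-month arrays, so that no change is given for that probe. Of its other probes 1 fell by 0.91 and 1 gave 0.04. Of 66 genes of the mitochondrial ribosome 10 fell (15.2%) and none rose, with a median of -0.38, led by Mrpl34 (-0.89), Mrps5 (-0.80) and Mrpl30 (-0.78). None of the 9 electron transport genes and 2 of the 10 ribosomal ones were called with the version as a block. Without 6-month replicate 1, electron transport and ATP synthase had 1 call and the mitochondrial ribosome 0, without 16-month replicate 1 they had 1 and 2, and without 16-month replicate 2 4 and 2, whereas without 6-month replicate 2 they had 17 and 22 falls.

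Of 36 proteasome genes 8 fell (22.2%, beside 3.39% of all genes) and none rose, with a median of -0.47, and 35 of the 36 had a negative value, as had 18834 of all 35337 genes. Psma4 had -0.40 and -0.58 at 6 months and -1.36 and -1.09 at 16 months, and fell by 0.73 (SE 0.10, adjusted p = 0.0232). Psmb3 and Psmd9 fell by 0.74 and 0.72 (adjusted p = 0.096 and 0.09), and neither was called with the version as a block, while each was called in 5 of the 14 fits without 1 array. Psmb5, the brightest of the list, gave -0.12 (adjusted p = 0.549), and its other probe fell by 0.77. The proteasome had 1 call without 6-month replicate 1, 1 without 16-month replicate 1 and 17 without 6-month replicate 2, and Psma4 at -0.58 fell short of 1.5-fold without 16-month replicate 1. Of 72 genes of the cytosolic ribosome 8 fell (11.1%) and none rose, though the list's median of -0.17 came from version 2.2 (-0.41) and not from version 2.1 (0.08). Rpl15 had -0.34 and -0.34 against -1.12 and -1.17, and fell by 0.81 (SE 0.11, adjusted p = 0.0203). Rpl22l1 fell by 1.09 and Rpl10 by 0.79, and all 3 were called with the version as a block. Rpl15 was called in all 14 fits that leave out 1 array and in 12 of 15 other settings (-0.89 to -0.45), whereas Rpl22l1 and Rpl10 were not called without 6-month replicate 1 (-0.98, adjusted p = 0.143 and -0.78, adjusted p = 0.13). The cytosolic ribosome had 2 calls without 6-month replicate 1 and 4 without 16-month replicate 2. Rplp1, the brightest of this list, was saturated on both 6-month arrays and on 1 of the 16-month arrays, so that no change is given for it. Of 21 heat shock genes none was called in limma, with a median of -0.34 and 18 negative values, and the brightest, Hsp90b1, gave 0.10 (adjusted p = 0.533), and 3 heat shock genes fell without 6-month replicate 2.

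Of 44 measured genes of the cell cycle 11 fell (25.0%, beside 3.39% of all genes) and none rose, 42 had a negative value (beside 18834 of all 35337), and the median was -0.73 (-0.44 within version 2.1 and -0.98 within version 2.2). Over other settings 0 to 35 of them fell, and the median was -1.09 to -0.39 without 1 array. Top2a, the topoisomerase of dividing cells, had -1.63 and -1.45 at 6 months and -2.42 and -3.88 at 16 months, and fell by 1.61 (SE 0.50, adjusted p = 0.097). Ccna2, a cyclin, fell by 1.35, its kinase Cdk1 by 1.27 and the replication licensing factor Cdt1 by 1.05. For Top2a, Ccna2 and Cdk1 16-month replicate 2 was lower than 16-month replicate 1. No cell cycle gene was called with the version as a block, without 6-month replicate 1 or without 16-month replicate 2, and a dimmer probe of Cdk1 gave 0.03. There were 7 cell cycle calls without 16-month replicate 1 and 5 without 6-month replicate 2. Of 19 genes of meiosis and the germ line 2 fell (10.5%), Dazl by 1.02 (adjusted p = 0.0537) and Sycp2 by 0.68 (adjusted p = 0.0736), neither of them without 6-month replicate 2 (-0.79 and -0.39) or 16-month replicate 2 (-0.79 and -0.57). Neither was called with the version as a block (adjusted p = 0.101 and 0.118). The list's median was -0.09, and its brightest gene, Sohlh2, gave 0.32 (adjusted p = 0.153). Of 32 DNA repair genes none fell, though 0 to 7 fell over other settings. In this list 1 gene was called as higher (3.12%, beside 2.12% of all genes), Ercc1 by 0.76 (adjusted p = 0.0961). Its other probe gave -0.37, and it was called in 5 of the 14 fits without 1 array and not with the version as a block (adjusted p = 0.138). The brightest of that list, Apex1, gave -0.34 (adjusted p = 0.236). The probe of Ercc1 held 43.3% C, and of all genes with probes above 40% C 20.8% were called as higher.

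Of 16 measured genes associated with senescence 3 fell (18.8%, beside 3.39% of all genes), all inhibitors of cyclin-dependent kinases. None was called as higher, 6 had a positive value, and the median was -0.04. Cdkn1b had 1.06 and 0.78 at 6 months and -0.14 and 0.03 at 16 months, and fell by 0.97 (SE 0.16, adjusted p = 0.0372). Cdkn2b fell by 1.28 (adjusted p = 0.0861) and Cdkn1a by 1.00 (adjusted p = 0.0903), with another probe of Cdkn1a at -0.10. With the version as a block Cdkn2b and Cdkn1a were not called (adjusted p = 0.128 and 0.129), while Cdkn1b was (adjusted p = 0.086). For all 3 the 6-month AL ovaries were the highest of the 14, as for Akr1c18. Cdkn2b and Cdkn1a were called in 5 of the 14 fits that leave out 1 array, and Cdkn1b in 12, all 3 being lost without 6-month replicate 1 (-0.81, -0.80 and -0.78) and 16-month replicate 1 (-1.23, -1.06 and -0.83). The senescence list had 5 falls without 6-month replicate 2.

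Of 27 measured genes of collagen and matrix 8 fell (29.6%, beside 3.39% of all genes) and none rose, 6 had a positive value, and the median was -0.50, with -0.86 within version 2.1 and -0.13 within version 2.2. Col1a1, a chain of type I collagen, had -0.03 and -0.42 at 6 months and -1.69 and -1.53 at 16 months, and fell by 1.38 (SE 0.35, adjusted p = 0.0727). Timp1, an inhibitor of matrix proteases, had 1.47 and 0.20 against -0.59 and -0.50, and fell by 1.38 (SE 0.31, adjusted p = 0.059). Col4a1 of the basement membrane fell by 1.10. Timp1 was again highest in the 6-month AL ovaries. Dcn, the brightest of the list, had 1.79 and 1.70 against 1.28 and 2.91 and was not called (adjusted p = 0.637), but was called as higher without 16-month replicate 1 (1.17, adjusted p = 0.0735). With the version as a block none of the 8 was called, and there were 1 matrix call without 6-month replicate 1, 0 falls without 16-month replicate 1, 3 without 16-month replicate 2 and 12 without 6-month replicate 2.

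Among the 12 largest rises of named genes are 5 genes on the lists of macrophage genes. Gpnmb, a glycoprotein of macrophages laden with lipid, had log2 ratios of -1.41 and -1.77 at 6 months and of 1.94 and 2.29 at 16 months. It rose by 3.70 (SE 0.78, adjusted p = 0.0543), which is 13.0-fold. The change was 3.34 within version 2.1 and 4.06 within version 2.2. With the version as a block Gpnmb was not called, nor without 6-month replicate 1 (4.06, adjusted p = 0.226), 16-month replicate 1 (4.06, adjusted p = 0.123) or 16-month replicate 2 (3.34, adjusted p = 0.14). Both 16-month ovaries stood above both 6-month ovaries.

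Fabp5, which binds fatty acids, had -2.47 and -1.34 at 6 months and -0.05 and 0.72 at 16 months, and rose by 2.24 (SE 0.65, adjusted p = 0.0872). Its other probe rose by 2.17. Pla2g7, a phospholipase that macrophages secrete, had -0.99 and -1.49 against 0.48 and 0.98, and rose by 1.97 (SE 0.52, adjusted p = 0.075), though a dimmer probe gave 0.27. Clec7a, a receptor for fungal glucans on macrophages, had 0.25 and 0.59 against 1.77 and 2.54, and rose by 1.73 (SE 0.51, adjusted p = 0.0878). All 3 rose in both pairs of animals. Gpnmb, Fabp5, Pla2g7 and Clec7a are the 4 called of 19 measured genes on the list of lipid-laden and multinucleated macrophages (21.1%, beside 2.12% of all genes). Of the 19, 16 had a positive and 3 a negative value, with Spp1 the lowest at -0.96. The list's median was 0.74, yet it was 0.12 within version 2.1 and 1.47 within version 2.2, and none of the 4 was called with the version as a block or without 6-month replicate 1. Without that array Fabp5 gave 1.29 (adjusted p = 0.53), Pla2g7 2.48 (adjusted p = 0.247) and Clec7a 1.39 (adjusted p = 0.456). None of the list was called without 16-month replicate 1 or 16-month replicate 2 either, and 2 were called without 6-month replicate 2.

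Of 23 measured general markers of macrophages 1 rose (4.35%, beside 2.12% of all genes) and none fell, and the median was 0.27 (0.15 within version 2.1 and 0.39 within version 2.2). Clec4d, a receptor of myeloid cells, had -2.69 and -2.49 at 6 months and -0.93 and -0.82 at 16 months, and rose by 1.72 (SE 0.53, adjusted p = 0.096), a call made in 4 of the 14 fits without 1 array and in none without a 6- or 16-month AL ovary (1.56 to 1.87). With the version as a block Clec4d was not called (adjusted p = 0.131). Cd68 had -1.11 and -1.07 against -0.80 and -0.02 (change 0.68, adjusted p = 0.375). Adgre1, a surface marker of macrophages, had -0.66 and -0.76 against -1.14 and -0.69, so that the ages overlap (adjusted p = 0.649). Csf1r, the brightest of the list, gave 0.37 (adjusted p = 0.564). The summed ovary signal of the list, in units of the quantile-normalized Cy3 channel, was 19335 and 24621 at 6 months and 38739 and 55881 at 16 months. Such a sum follows the brightest members most, and of the 23 genes 17 had a positive and 6 a negative change. Of 26 lysosome genes none was called in limma, with Cd63 at 0.07 (adjusted p = 0.875). The median of these genes was 0.07, with -0.28 within version 2.1, 0.29 within version 2.2 and -0.21 to 0.17 without 1 array.

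Lists of other immune cells and signals had few calls, and over all genes 2.12% were called as higher and 3.39% as lower. In the B and plasma cell list all 16 measured genes had a positive value (beside 16503 of all 35337), with a median of 0.33, but none was called in limma, and Jchain, a chain of secreted IgM and IgA, was at -5.48 and -5.46 at 6 months and at -5.54 and -3.25 at 16 months, so that its change of 1.08 came from 16-month replicate 2 (adjusted p = 0.35). None was called of the 19 T and NK cell genes (median 0.10), the 8 mast cell genes (median 0.11) and the 23 interferon-induced genes (median -0.22). Of 34 chemokines and receptors 1 rose and 1 fell (2.94% each, median 0.00). Ccl21a, which guides lymphocytes and dendritic cells, had 2.32 and 2.41 against 3.34 and 3.33, and rose by 0.97 (SE 0.18, adjusted p = 0.0444), while its other probe gave -0.02. Ccl11, the eosinophil attractant eotaxin, fell by 0.70 (SE 0.07, adjusted p = 0.0129) and was called in all 14 fits without 1 array, but in 11 of 16 other settings (-1.82 to -0.11), and it gave -0.11 without background correction and -0.26 from the Cy3 channel alone. C3ar1, the receptor of a complement fragment, had 0.28 and 0.28 against 1.19 and 1.19, and its rise of 0.91 (SE 0.17, adjusted p = 0.0449) was the 1 call among 25 complement genes (4.00%, median -0.05). Ccl21a and C3ar1 were each called in 11 of the 14 fits without 1 array, but neither was called without 6-month replicate 1 (0.92, adjusted p = 0.207 and 0.91, adjusted p = 0.195). C3 itself had -0.65 and -1.71 against -0.81 and 0.08 (adjusted p = 0.315). H2-DMb1, which loads peptides on MHC class II, rose by 0.94 (adjusted p = 0.0712) as the 1 call of 7 genes of that list (14.3%, median -0.08), and another probe of it gave -0.20. S100a9 was the 1 call of 9 neutrophil genes (11.1%, median 0.05), with a rise of 0.66 (adjusted p = 0.0774) while its other probe fell by 1.44. The probes of C3ar1 (30% C), H2-DMb1 (35%) and S100a9 (30%) are rich in C. Of all genes with probes of 30% to 40% C, 6.40% were called as higher. Without 6-month replicate 1 neither H2-DMb1 (0.88, adjusted p = 0.305) nor S100a9 (0.69, adjusted p = 0.304) was called, and in all they were called in 11 and 10 of the 14 fits without 1 array. Without 6-month replicate 2 there were 5 falls among the interferon-induced genes.

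Signals of the TGF-beta family were nearly level as lists. None was called of the 16 ligands (median -0.05), the 9 receptors (median -0.15), the 8 inhibitors (median -0.12) and the 4 BMP targets (median -0.04). Among 7 SMADs Smad4, the mediator that all branches share, had 1.66 and 1.52 at 6 months and 0.72 and 0.86 at 16 months, and fell by 0.80 (SE 0.19, adjusted p = 0.067), the 1 call of that list (14.3%, beside 3.39% of all genes). Smad4 was called in 11 of the 14 fits without 1 array, but not with the version as a block, nor without 6-month replicate 1 (-0.66, adjusted p = 0.36). The 9 measured hormone receptors, Esr2 among them, had a median of -0.29. Of 14 genes of the ovulatory response none was called (median -0.03). A gene without a call is not thereby shown to be equal at both ages. Without 6-month replicate 2 there were 3 falls and 1 rise among the TGF-beta ligands.

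Other tissues that could come along with an ovary were looked at through their markers. Smooth muscle genes had a median of -0.85, from -1.76 within version 2.1 and 0.06 within version 2.2, and none of 7 was called, though 4 fell without 6-month replicate 2. Their summed Cy3 signal was 66755 in 6-month replicate 1, against 18859 in 6-month replicate 2 and 22111 and 23991 at 16 months, and their brightest gene was Tagln. The oviduct list had -1.30 and -0.07 within the versions, with a summed signal of 9056, 5843, 4007 and 5434 in the same order and Tppp3 as its brightest gene. The surface epithelium list had -0.68 and 0.35, with sums of 24002, 9029, 15174 and 10858, and its brightest gene was Krt18. In all 3 lists 6-month replicate 1 has the highest signal of the 4 ovaries, and the part of this in the other differences within version 2.1 was not tested. According to the authors the fat next to the ovary was taken off at dissection and sections were later looked at. Of 11 fat cell genes 1 fell (9.09%, beside 3.39% of all genes), Thrsp by 1.21 (adjusted p = 0.0761), and the list's medians within the versions were -0.68 and 0.22. Fabp4, the brightest of them, had 3.75 and 2.28 against 3.56 and 4.00. Of 11 endothelium genes 1 rose (9.09%, beside 2.12% of all genes), Egfl7 by 0.66 (adjusted p = 0.097). That value lacks 6-month replicate 1, and Egfl7 was called in 4 of the 13 fits without 1 array that measured it. The 12 measured genes of theca and stroma had a median of -0.08, and Enpep of that list fell by 1.44 (adjusted p = 0.0754), with the other probes of Enpep at -0.06 and 0.06. Without 6-month replicate 1 neither Thrsp (-0.56) nor Enpep (-1.30) was called, and without 16-month replicate 1 none of Thrsp (-0.75), Enpep (-1.45) and Egfl7 (0.62). Acinar cells of the pancreas (8 measured, median 0.19) and red cells (2 of 7 measured, median -0.04) had no call.

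**Figure D2:**
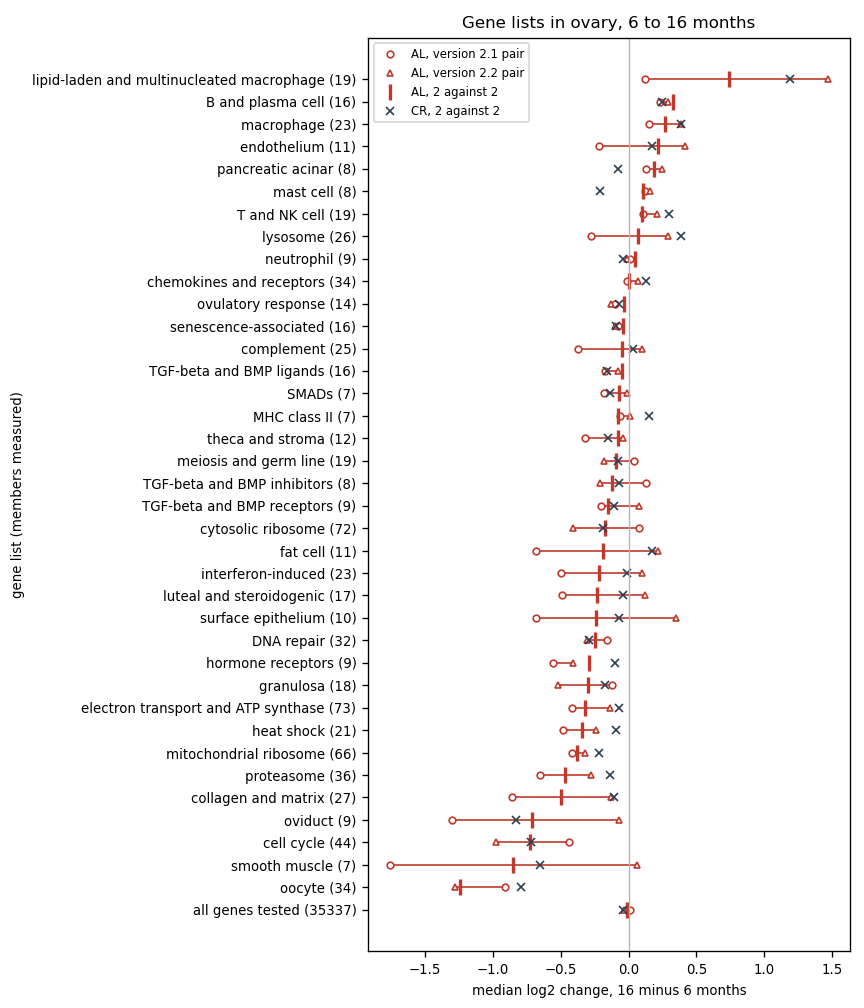
Median log2 change from 6 to 16 months (x axis) of each gene list with at least 7 measured members (y axis, members in brackets), for AL as a whole (bar), for the pair of AL animals on either array version (circle and triangle, joined by a line) and for CR (cross). The oocyte list has the lowest median on AL, at -1.24, and lipid-laden and multinucleated macrophages the highest, at 0.74, and for smooth muscle the pairs lie far apart, at -1.76 and 0.06.

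The same step of age on CR was measured in 4 other animals, and it gave no call. In limma 0 of 35335 genes were called (0%), with 7351 at an unadjusted p under 0.05, where AL had 8907. The test of the difference between the diets also called 0 of 35335 genes (0%), with 2139 at an unadjusted p under 0.05, so that no gene can be named as changed on AL and not on CR. Both zeros hang on single arrays. On CR the count was 1923 without CR 16-month replicate 1, 302 without CR 6-month replicate 1, 359 without either CR ovary of 24 months, 2 without CR 16-month replicate 2, 1 without either AL ovary of 6 months, 4 with a trend and robust eBayes and 3 without background correction. For the difference it was 58 without AL 6-month replicate 1, 50 without AL 6-month replicate 2, 12 without AL 16-month replicate 1, 11 without CR 6-month replicate 1, 2 without CR 16-month replicate 2, 1 without AL 16-month replicate 2, and 1 with the signals of the scanner software or with the deposited values.

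In values, the CR ovaries took the same direction in most of the called AL genes. Of the 1197 falls 93.6% were lower on CR as well, beside 59.2% of all genes, and of the 750 rises 97.6% were higher, beside 40.8% of all. For the rises all genes are an unlike baseline, since 57.7% of the rises had probes with at least 30% C. The median change on CR was 0.13 for probes of 30% to 40% C, 0.57 above 40% and -0.04 over all genes. The median of the rises was 0.93 on AL and 0.74 on CR, and that of the falls -0.75 on AL and -0.33 on CR. The genes were selected for their change on AL, which favours the larger value there. Padi6 had 4.16 and 4.55 at 6 months on CR and 2.84 and 2.45 at 16 months, a change of -1.71 (adjusted p = 0.145), and the difference of the changes had an adjusted p of 0.808. Gpnmb on CR had 1.63 and -0.66 against 1.81 and 3.29, a change of 2.07 (adjusted p = 0.193). The medians on CR were -0.79 for the oocyte list, -0.72 for cell cycle, 1.19 for lipid-laden and multinucleated macrophages, -0.11 for collagen and matrix and -0.07 for electron transport and ATP synthase.

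The neighbouring intervals on AL share arrays with this step, namely the 6-month ovaries with the step from 1 month and the 16-month ovaries with the step to 24 months, and their values are given side by side only. The oocyte list had a median of -0.98 from 1 to 6 months, -1.24 from 6 to 16 months and -0.15 from 16 to 24 months. Lipid-laden and multinucleated macrophages had 0.40, 0.74 and 0.69 in the same order, and electron transport and ATP synthase 0.19, -0.32 and -0.19. Nobox had 3.59 and 3.48 at 1 month and 0.27 and 0.26 at 24 months, beside 0.57 and 0.23 at 16 months. Gng13, a G protein subunit and the one of the 12 largest rises that was called in all 14 fits without 1 array, had 0.69 and 1.25 at 1 month, 0.57 and 0.58 at 6 months, 1.95 and 2.36 at 16 months and 2.55 and 2.48 at 24 months. It rose by 1.58 from 6 to 16 months (SE 0.22, adjusted p = 0.0232), and was called with the version as a block too, and in 15 of 16 other settings (1.25 to 1.93).

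The probes of the rises and falls differ in their letters. This was seen after the values were known and has no test. The probes of the 750 rises held 30.2% C on average, those of the 1197 falls 20.1% and all probes 22.0%. Of the rises 57.7% had probes with at least 30% C, beside 15.7% of all genes and 7.85% of the falls. The share of genes called as higher was 1.04% where C made up less than 10% of the probe (672 genes), 0.628% at 10% to 20%, 1.39% at 20% to 30%, 6.40% at 30% to 40% and 20.8% above 40%. The median change was -0.11 in the bin of least C, -0.09 in the next and 0.40 in the last, and on CR -0.09, -0.10 and 0.57. After a further loess of each array's ratios on the share of C, an alternative chosen after seeing the data, 1625 genes were called, 569 higher and 1056 lower, and 1499 of them are among the 1947. Of the 34 oocyte genes 21 fell in that fit.

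Some of the largest rises belong to families of probes that share a stretch of sequence. Probes were joined when they had 16 letters in common on either strand, and 12 families of at least 10 probes resulted, again after the values had been seen. In a family of 21 probes, none with a gene name, 17 rose, and 1 of the 21 was saturated on both 16-month arrays. The median change over the whole family was 2.43, with 3.40 within version 2.1, 1.52 within version 2.2 and 0.15 on CR. Of the 30 largest rises with or without a name 17 are in it. Its median log2 ratio was -1.65 and 0.42 at 6 months and 1.71 and 2.00 at 16 months, so that 6-month replicate 1 was the lowest of all 14 ovaries. From general knowledge its letters resemble the major satellite repeat of mouse centromeres, which no genome was at hand to check. A second family of 17 probes, which holds Tlm, 6330575B07Rik and LOC623518, had 14 rises and a median of 1.18 (1.61 and 0.79 within the versions and 0.90 on CR). A stretch of the brightest probe with the commonest shared word is printed for either family, the 16 letters in capitals, to show what is being measured.
Family of 21 probes: ttttccaTGATTTTCAGTTTTCTtgccata
Family of 17 probes: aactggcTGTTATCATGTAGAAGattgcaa
The first of these probes changed by 2.40 (adjusted p = 0.0668) and the second by 1.33 (adjusted p = 0.0861). With the version as a block no probe of either family was called. Not every family moved: in the largest, of 72 probes with several zinc finger genes, none was called, and in a family of 26 probes 15 fell (median -0.61).

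Of the 12 largest rises of named genes 6, namely 4930431F12Rik, LOC623518, C630016I17Rik, 4930519L02Rik, 6330575B07Rik and Naip6, had like profiles. 4930431F12Rik had -0.27 and 0.93 at 6 months and 2.12 and 2.01 at 16 months, a rise of 1.74 (SE 0.47, adjusted p = 0.079), and LOC623518 had 0.13 and 1.28 against 2.40 and 2.37, a rise of 1.68 (SE 0.45, adjusted p = 0.0768). The others rose by 1.56 to 1.66. In all 6 the ovary on version 2.1 was the lower of the 6-month ovaries and both 6-month ovaries were below all 12 others. Naip6 leads through its brightest probe only, with 0.02 and -0.15 at its other probes, and 4930519L02Rik has another probe at 0.07. None of the 6 was called with the version as a block, nor without 6-month replicate 1, where the changes were 0.97 to 1.09, 16-month replicate 1 (1.47 to 1.67) or 16-month replicate 2 (1.66 to 1.85). Whether these probes report the named genes or repeated sequence was not tested.

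**Figure D3:**
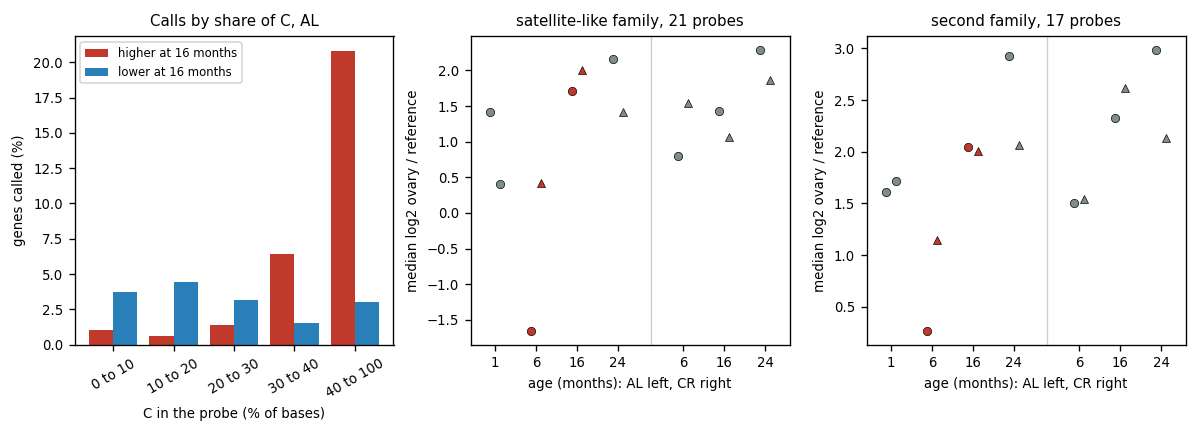
Left, share of genes called as higher or lower at 16 months on AL (y axis, %) by the share of C in the probe (x axis, %). Middle and right, median log2 ratio of ovary to reference (y axis) of a family of 21 and of 17 related probes on each of the 14 ovary arrays, by age in months (x axis), AL to the left and CR to the right of the line, circles for version 2.1, triangles for version 2.2 and red for the 4 AL ovaries compared. Calls as higher reach 20.8% above 40% C, and in both families AL 6-month replicate 1 is the lowest array, at -1.65 and 0.27.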

How the data were processed

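The values came from the image files of the 14 ovary arrays, 1 mouse on each; testis arrays were not used. Per the file headers these hold the intensity of each spot in both channels, as written by Agilent Feature Extraction. Mean signals were background-corrected (normexp, offset 50) and loess-normalized in limma 3.58.1 (R 4.3.3), spots marked as outliers or by hand were left out, and the log2 ratio of Cy3 to Cy5 was taken. The tables deposited by the authors hold log10 intensity of the gonad channel, normalized with the reference; 4 ovary cells with a missing-value code were read as missing. Their column medians were 3.01 to 3.06, and how scale and centring were set is not known; they served as an alternative. The 38270 probes on both versions were matched by sequence, and version 2.1 was shifted by the median difference over the groups. Names came from accessions (14749 probes) or a supplementary table (4544), alike for 99.2% of 2124 named by both; 17152 probes had a name, for 14219 genes. Where a gene had several probes the one with the strongest mean signal was used, and unnamed probes were kept singly.

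limma fitted 7 group means, with Benjamini-Hochberg adjustment over all genes; called means an FDR of at most 0.1 and 1.5-fold. An exact permutation test of 2 against 2 cannot go below 0.333. The members and the 39 gene lists were chosen with earlier results of these data known. The genes named are the 12 largest rises and falls with the same sign within both versions, up to 3 called members and the brightest of each list, and 26 fixed genes. Alternatives changed background correction, normalization, array version, error variance, samples in the fit, probe filter and probe choice, and left out each array in turn. Tables and figures used python 3.11.15, pandas 2.3.3, numpy 2.4.6 and matplotlib 3.10.9.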

Additional observations from a re-analysis of the deposited data

How the results depend on the processing

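The count of genes called on AL, 1947, was 3565 with the signals of the scanner software, 661 without background correction, 767 from the Cy3 channel alone, 174 with median centring, 362 with the version as a block, 102 without version adjustment and 0 in limma when the variance followed the methods' ANOVA, where 3451 had an unadjusted p under 0.05. Other settings gave 1312 to 2688, among them a loess on the share of C chosen after seeing the data (1625). Fewer genes than 35337 were tested with deposited values (2688 of 23338) and with named genes only (1491 of 14219). Leaving out 1 array gave 200 to 4048. The count on CR, 0 in limma with 7351 at an unadjusted p under 0.05, was 3 without background correction and 4 with a trend and robust eBayes, and 0 to 1923 without 1 array. The count for the difference between diets, 0 in limma with 2139 at an unadjusted p under 0.05, was 1 with the scanner software and 1 with deposited values, and 0 to 58 without 1 array. The oocyte median of -1.24 was -0.49 without background correction, where 10 fell instead of 23, -0.91 within version 2.1 and -1.46 to -0.89 without 1 array. The cause was not tested for any of these.

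With deposited values Ercc1 was at -0.49, and with the probe of lowest p Ercc1 was at -0.37 and S100a9 at -1.44, opposite in sign to the values of their brightest probes. Cox6a1 was at -0.98 with deposited values and at -0.91 with the probe of lowest p. Its brightest probe was saturated on 1 array, so that its sign cannot be compared. The ovulatory median was 0.06 with probes above background only and 0.06 with the loess on C. The neutrophil median was 0.00 without background correction, -0.11 from Cy3 alone, -0.23 with median centring, -0.02 with the loess on C, -0.09 with the probe of lowest p, -0.01 within version 2.2 and -0.04 to 0.05 without 1 array. The MHC class II median was 0.01 with median centring, 0.01 within version 2.2 and -0.09 to 0.02 without 1 array, and the senescence median -0.14 to 0.07 without 1 array. The cause was not tested. Of the comparisons of a named gene with an alternative, 3039 stayed (same direction and side of the threshold, or a move of less than 1 SE), 572 lost the call, 44 gained it, 171 moved and 5 reversed, which counts a change of sign only where either value was called; of those of list medians 1141 stayed, 94 moved and 13 reversed.

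A median signal of 1.33 to 1.74 times background limits what dim probes can show. Beyond the array version as a block, no paired analysis was possible because the labels match no animals across ages. Where an array is left out, the lone animal of its group is assumed to vary like the other groups.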
